A study of Mus musculus with 6 samples.

Results

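Semaphorins, plexins and neuropilins are the ligands and receptors of one signalling system, and their transcripts were examined in thymic tuft cells of mice with floxed Ikzf1. The members were taken by gene symbol, as all genes named Sema or Plxn with a subclass number and letter plus Nrp1 and Nrp2, and came to 31 of the 55471 genes in the expression table. They comprise 20 semaphorins, 9 plexins and 2 neuropilins. Tuft cells are chemosensory epithelial cells, and here they were sorted from thymus on the surface protein L1CAM. All 6 samples carried floxed alleles of Ikzf1, which encodes the zinc finger transcription factor Ikaros. The 3 control samples were negative for Foxn1-Cre and labelled WT, and the other 3 were positive for it and labelled KO. Foxn1 is expressed across thymic epithelium, so this Cre is not restricted to tuft cells. The labels used here give neither age nor sex. In the expression table the libraries are called Het1, Het2, Het3, Ko1, Ko2 and Ko3. Those called Ko were taken as the Cre-positive samples, and those called Het, a word found in no label, as the Cre-negative ones by elimination. Values of single libraries are always given in the order of these numbers.

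The targeted gene, Ikzf1, had more RNA in Ko than in Het libraries. Its normalized counts averaged 254 ± 59.7 in Het and 1584 ± 128 in Ko (SD, n = 3 per group; log2 fold change 2.66 ± 0.30 SE, limma adjusted p = 0.0105). Reads were summed over the gene and cannot show whether the floxed exons were lost, so every direction below is between libraries as labelled. A normalized count is the number of reads of a gene divided by a size factor for its library, and the reads recovered from it gave library totals of 12238400 to 31435800. Whether each library is 1 animal is not stated, so the p-values reflect only how these samples vary, and that variation may be technical. For a single gene, an exact permutation test on 3 and 3 libraries has a smallest p of 0.1, so a limma fit over 19416 genes was used. Tuft cell markers were present throughout. Trpm5, the cation channel of taste transduction, stood between 11647 and 19979 normalized counts, and the transcription factor gene Pou2f3 between 2041 and 3090. Of the 12 tuft markers listed, limma called Rgs13 higher, at 32005 ± 2645 over Het and 81568 ± 15215 over Ko libraries (SD, n = 3 per group, limma adjusted p = 0.00868). Gnb3 was called lower, at 11988 ± 1218 and 5274 ± 1657 (SD, n = 3 per group, limma adjusted p = 0.0341). The other tuft markers were not called. Of the 12, 10 had a positive and 2 a negative log2 fold change (Gnb3 and Il25). Their median was 0.24, against -0.05 over all tested genes.

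Semaphorins are secreted or membrane-bound proteins first known for steering growing axons, and they also act on blood vessels, immune cells and epithelia. Plexins are their transmembrane receptors and carry a GTPase-activating domain inside the cell that acts on small G proteins such as R-Ras and Rap1. Most secreted class 3 semaphorins bind a neuropilin, which pairs with an A-type plexin to pass the signal on, and L1CAM, the protein used for the sort, is known as a partner of neuropilin-1 in this complex. Class 4 semaphorins mainly use B-type plexins, while Sema6a binds Plxna2 and Plxna4 directly. In the thymus, Sema3e and its receptor Plxnd1 are known for guiding developing thymocytes.

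Each of the 31 genes had reads in all 6 libraries. Per kilobase of annotated exon, the most abundant transcript was Plxnb2, a receptor of class 4 semaphorins, at 314 ± 73.1 normalized counts per kb over Het and 240.0 ± 86.7 over Ko libraries (SD, n = 3 per group). Sema4a, a transmembrane ligand known from immune cells, stood at 181 ± 32.4 and 162 ± 72.6 per kb, and the secreted Sema3f at 105 ± 18.3 and 129 ± 50.4. At the lower end Sema3g, known from endothelium, had 20 reads in the Het and 4 in the Ko libraries and was the 1 member below the minimum mean of 10 normalized counts, so 30 members were tested. Sema5a, a membrane semaphorin with thrombospondin repeats, took place 8 of the 31 by level per kb in Het libraries and place 2 in Ko libraries. Plxna4 moved from place 18 to place 6, and the secreted Sema3c from place 9 to place 26.

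**Figure D1:**
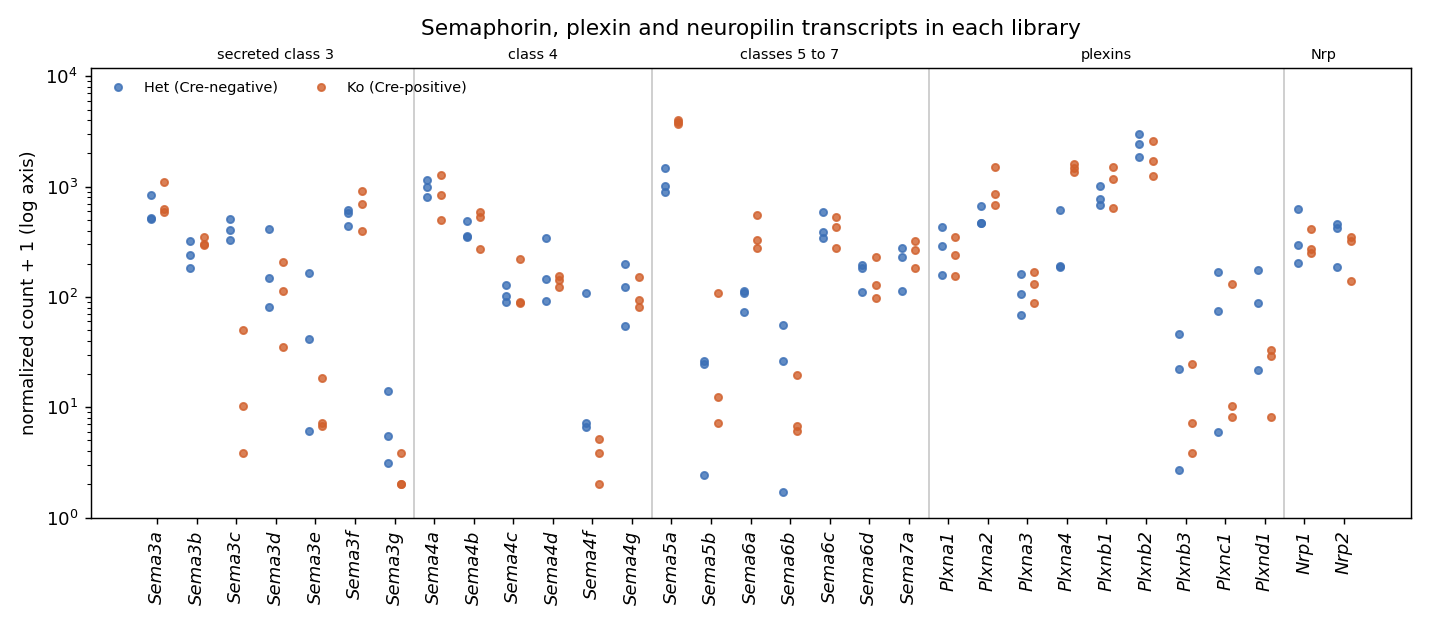
Normalized count plus 1 of each of the 31 genes (log axis), with blue points for Het1 to Het3 and orange points for Ko1 to Ko3, and grey lines between classes. Sema5a, Sema6a, Plxna2 and Plxna4 have every Ko point above every Het point, Sema3c and Sema4f the reverse, and the groups of the other 25 genes overlap.

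Among the receptors, Plxna4 rose. This A-type plexin receives class 3 signals through neuropilins and class 6 semaphorins directly. Its normalized counts were 190.1, 611 and 185 across the Het libraries, and 1481, 1587 and 1368 across the Ko libraries. The Ko libraries lay close together, while Het2 stood apart from the other Het libraries and was still below the lowest Ko library. The means were 328 ± 244 and 1479 ± 109.6 (SD, n = 3 per group), a 4.50-fold difference. On the log2(value + 1) scale Plxna4 differed by 2.40 ± 0.45 (SE; limma adjusted p = 0.0460; higher in 3 of 3 Ko libraries). The call was kept without Het2 (adjusted p = 0.0258) and lost without Het1 (0.0917), Het3 (0.191), Ko1 (0.0978), Ko2 (0.119) or Ko3 (0.123), and with TMM scaling (0.0520). edgeR on the recovered reads did not call it (edgeR adjusted p = 0.114), whereas DESeq2 did (DESeq2 adjusted p = 9.86e-05; over 14 alternatives the highest was 0.191). The authors' deposited table gives a log2 fold change of 2.17 with an adjusted p of 0.00139.

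Plxna4 contains 3 annotated antisense genes, and the counting is not stated to use strand. Only Plxna4os3 shares exon bases with Plxna4, 110 of 14103, and it had 3 reads in all Het and no reads in the Ko libraries. Plxna4os1 had 20, 108 and 23 reads across the Het libraries, and 25, 95 and 3 across the Ko libraries, so its highest library in each group was the one highest for Plxna4. Plxna4os2 had 4, 1 and 0 reads and 81, 3 and 33 reads, with its lowest Ko value in Ko2. The part of antisense reads in the Plxna4 counts was not tested.

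The other A-type plexins differed less. Plxna2, which also binds class 6 semaphorins, stood at 472, 666 and 470.4 normalized counts across the Het libraries, and 1512, 854 and 675 across the Ko libraries. The groups touched closely, with Ko3 just above Het2, and Ko1 set the higher mean. The difference of 0.85 ± 0.35 (SE) in log2 did not pass (limma adjusted p = 0.327; 0.149 to 0.617 over 14 alternatives). Plxna1 was at 292 ± 137 over Het and 248 ± 99.6 over Ko libraries and Plxna3 at 111 ± 46.0 and 129 ± 39.8 (SD, n = 3 per group; limma adjusted p = 0.908 and 0.907). Of the summed A-type plexin level per kb, Plxna4 made up 12.4%, 38.3% and 16.2% across the Het libraries, and 42.2%, 56.3% and 55.6% across the Ko libraries. Plxna1 went from the largest share in Het1, 43.8%, to 15.6% in Ko1, 13.2% in Ko2 and 9.7% in Ko3, with 15.4% in Het2 and 39.4% in Het3. Shares within a sum depend on one another.

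The B-type plexins, receptors mainly of class 4 semaphorins, made up most of the summed plexin level per kb of exon in every library. Plxnb2 stood at 2428, 2989.7 and 1861 normalized counts across the Het libraries, and 2579, 1719 and 1261 across the Ko libraries. Ko1 lay above 2 of the Het libraries, so the groups overlapped (log2 fold change -0.42 ± 0.29 SE, limma adjusted p = 0.573). Plxnb1, the classical receptor of Sema4d, was at 687, 1023 and 776 and at 641, 1519 and 1160.2 (0.35 ± 0.35, limma adjusted p = 0.720). Ko1 held its lowest value and Ko2 its highest. Plxnb3 was close to unread, with 64 reads over Het and 31 over Ko libraries.

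Plexins known from blood cells and endothelium were low and uneven. Plxnc1, the receptor of Sema7a, was at 169, 4.97 and 73.6 normalized counts across the Het libraries, and 131, 9.32 and 7.16 across the Ko libraries. Het2 was far below the other Het libraries, and Ko1 far above the other Ko libraries. Plxnd1, the receptor of Sema3e, was at 20.7, 86.6 and 175 in Het and 31.9, 28.0 and 7.16 in Ko libraries, with Het1 below 2 of the Ko libraries. Neither passed (limma adjusted p = 0.851 and 0.542). In bulk samples fewer cells of a type and less RNA per cell cannot be told apart. Both neuropilins overlapped between groups as well. Nrp1 stood at 292, 200.2 and 629 across the Het libraries, and 248, 411 and 269 across the Ko libraries (log2 fold change -0.14 ± 0.49 SE, limma adjusted p = 0.934; 0.32 without Het3). Nrp2 stood at 187, 455 and 417 and at 139, 350.1 and 322 (-0.39 ± 0.53, limma adjusted p = 0.807; 0.032 without Ko1). The first library of each group held the lowest Nrp2 value.

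**Figure D2:**
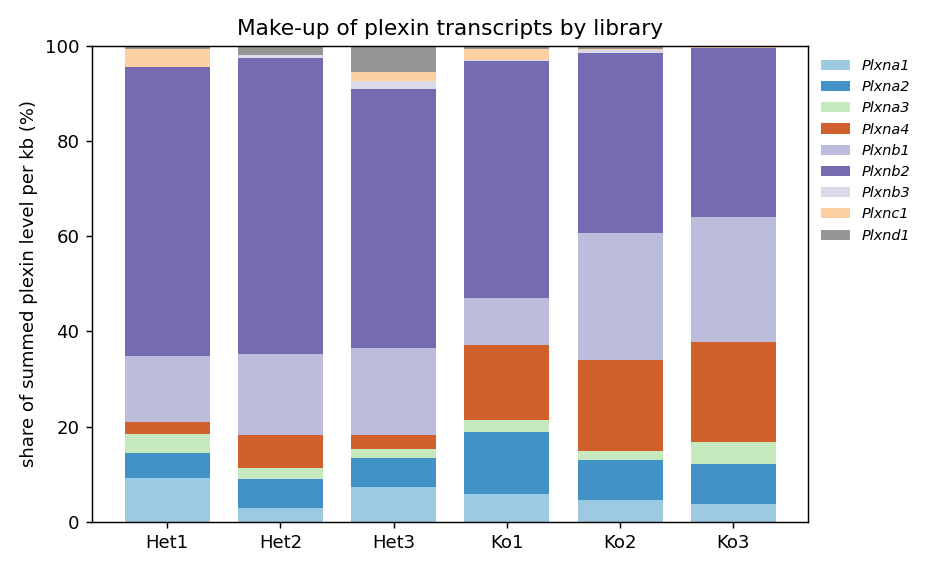
Share of each plexin in the summed plexin level per kb of exon (percent, stacked bars from 0 to 100) in each library. Plxnb2 takes 54.5% to 62.2% in Het and 35.4% to 49.8% in Ko libraries, and Plxna4 (dark orange) 2.6% to 7.0% and 15.7% to 21.0%.

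Among the ligands, Sema5a rose. It is a membrane semaphorin that has been described as both attractive and repulsive to axons. Its normalized counts were 1467, 1015 and 896 across the Het libraries, and 3830.4, 3689 and 4029 across the Ko libraries. The lowest Ko library was far above the highest Het library, and the Ko libraries lay closer together than the Het libraries. The means were 1126 ± 301 and 3849.6 ± 171 (SD, n = 3 per group), a 3.42-fold difference on 4674 and 10097 reads. On the log2 scale this was 1.80 ± 0.22 (SE; limma adjusted p = 0.0122; higher in 3 of 3 Ko libraries). edgeR, DESeq2 and the authors' deposited table called it too (edgeR adjusted p = 0.0295, DESeq2 adjusted p = 1.49e-10, deposited adjusted p = 2.46e-09). The limma call was lost without Het2 (adjusted p = 0.0614) or Het3 (0.0768) and kept without any of the other 4 libraries. Sema5a took 5.7% to 9.2% of the summed semaphorin level per kb among Het and 19.4% to 21.6% among Ko libraries.

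The 250 bases before the Sema5a start are shown because it was the member that limma, edgeR, DESeq2 and the authors' deposited table all called. The sequence is from RefSeq on build GRCm38.p6, chr15:32244563-32244812, plus strand, and capitals mark the letters TGGGAA, a core motif known for Ikaros, searched on both strands.
Sema5a: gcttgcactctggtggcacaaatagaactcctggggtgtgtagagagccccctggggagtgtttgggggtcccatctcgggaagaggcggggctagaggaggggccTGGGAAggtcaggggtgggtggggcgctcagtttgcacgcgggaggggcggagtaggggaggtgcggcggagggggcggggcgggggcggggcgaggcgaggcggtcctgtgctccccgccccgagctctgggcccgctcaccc
The window is 72.0% G and C and holds 1 match. The same letters occur in the same window of 21.6% of all 32851 RefSeq promoters, counted by entry. Counted by gene, they occur in at least 1 entry of 6 of the 26 members that have one (Plxnb2, Plxnc1, Sema4a, Sema4d, Sema5a and Sema6d). Some members have several entries, so these counts are not in the same unit. The match is a description of the letters and says nothing about binding. Plxna1, Plxna4, Sema3b, Sema3f and Sema6a had no entry.

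Sema6a, the class 6 ligand of Plxna2 and Plxna4, had normalized counts of 72.1, 113 and 108 across the Het libraries, and 325, 279.7 and 556 across the Ko libraries. Each Ko library was above each Het library, and Ko3 was the highest. The means were 97.7 ± 22.3 and 387 ± 148 (SD, n = 3 per group), a 3.96-fold difference on 363 and 974 reads. The log2 fold change of 1.94 ± 0.51 (SE) did not pass limma (limma adjusted p = 0.124) or edgeR (edgeR adjusted p = 0.170). It passed DESeq2 (DESeq2 adjusted p = 0.00799; over 14 alternatives the highest was 0.359), and the authors' deposited table gives an adjusted p of 1.88e-04. Sema6c was at 587, 385 and 345 and at 427, 276 and 531 normalized counts, with overlapping groups (limma adjusted p = 0.939; log2 fold change -0.11, but 0.12 without Het1 and 0.16 without Ko2).

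The remaining members of classes 5 to 7 did not pass. Sema7a, which is anchored by a lipid and binds integrins and Plxnc1, was at 207 ± 85.0 over Het and 256 ± 70.4 over Ko libraries, and Sema6d at 163 ± 45.3 and 151 ± 69.0 (SD, n = 3 per group; limma adjusted p = 0.816 and 0.936). Sema5b, the nearest relative of Sema5a, had 79 reads over Het and 119 over Ko libraries, most of the latter in Ko1 (limma adjusted p = 0.857). Sema6b had 84 and 27 reads (0.922).

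Among the secreted class 3 ligands, Sema3c had the log2 fold change farthest from 0 of the 30 tested members. This ligand signals through neuropilins and is known from the developing heart and vessels. It stood at 331, 507 and 403 normalized counts across the Het libraries, and 9.26, 48.7 and 2.86 across the Ko libraries. All Ko libraries were below all Het libraries, and Ko2 held most of the remaining signal. The means were 413 ± 88.7 and 20.3 ± 24.8 (SD, n = 3 per group), 20.4-fold apart on 1584 and 58 reads. With a log2 fold change of -5.02 ± 0.98 (SE), Sema3c missed the limma threshold narrowly (limma adjusted p = 0.0504) and was not called by edgeR (edgeR adjusted p = 0.133). It was called by DESeq2 (DESeq2 adjusted p = 1.12e-05) and in the authors' deposited table (adjusted p = 5.20e-05). Limma called it in 5 alternatives: without Ko2 (adjusted p = 0.0323), with a pseudocount of 5 (0.0388), with no filter (0.0424), with a minimum mean of 50 (0.0466) and with TMM scaling (0.0476). The highest adjusted p over 14 alternatives was 0.232.

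Sema3a, Sema3c, Sema3d and Sema3e lie on chromosome 5, and the groups of the other 3 overlapped. Sema3a, the prototype repellent of axons, was at 509, 847 and 521 normalized counts across the Het libraries, and 584, 632 and 1096 across the Ko libraries (log2 fold change 0.28 ± 0.35 SE, limma adjusted p = 0.788; -2.9e-04 without Ko3). Sema3d was at 214 ± 176 and 118 ± 86.2 (SD, n = 3 per group; limma adjusted p = 0.716). Sema3e had 268 reads over Het and 27 over Ko libraries, with values of 5.03, 164 and 40.4 across the Het libraries, and 6.17, 17.6 and 5.73 across the Ko libraries. For Sema3e, Het1 lay below every Ko library and Het2 and Het3 above them, so the groups overlapped (limma adjusted p = 0.633). The difference between the fold changes of Sema3c and its neighbours was not tested.

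Sema3f, which signals through Nrp2, was at 438, 578 and 619 normalized counts across the Het libraries, and 919.8, 696 and 398 across the Ko libraries. Ko3 lay below every Het library and Ko1 above all (log2 fold change 0.23 ± 0.37 SE, limma adjusted p = 0.838; -0.034 without Ko1). Sema3b was at 247 ± 70.2 and 315 ± 27.6 (SD, n = 3 per group; limma adjusted p = 0.746). For Sema3g the ratio of Het over Ko rates was 3.39 on 20 and 4 reads, with an exact 95% interval of 1.13 to 13.6 that covers counting error only.

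Class 4, the transmembrane ligands of B-type plexins, had no called member. Sema4a was at 1148, 986 and 798 normalized counts across the Het libraries, and 497, 842 and 1281 across the Ko libraries. Its lowest and highest values were both in Ko libraries (log2 fold change -0.25 ± 0.36 SE, limma adjusted p = 0.818; 0.10 without Ko1). Sema4b was at 354, 485 and 346 and at 586, 271 and 534 (0.17 ± 0.40, limma adjusted p = 0.898; -0.035 without Ko1). Sema4c, Sema4d and Sema4g stood at Het means of 105, 194 and 125 and Ko means of 132, 139.8 and 108, with limma adjusted p-values of 0.929, 0.900 and 0.979. Sema4f was singled out after its values were seen, because its groups did not overlap. It was at 6.15, 5.68 and 108 across the Het libraries, and 1.03, 4.14 and 2.86 across the Ko libraries. Het3 held most of its reads, and with 7 reads in the Ko libraries it did not pass (limma adjusted p = 0.572).

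**Figure D3:**
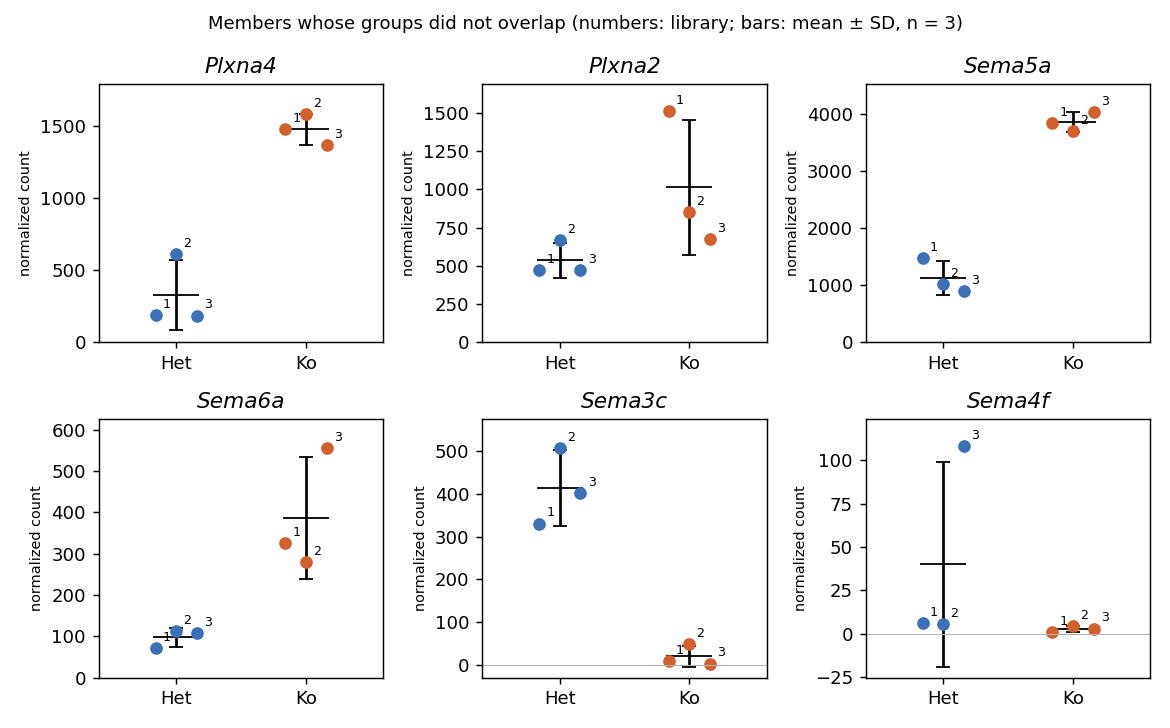
Normalized counts (linear axes) of the 6 members whose groups did not overlap; each point is a library with its number, and black bars are mean ± SD (n = 3). Plxna4, Sema5a, Plxna2 and Sema6a are higher in Ko, while Sema3c is lower and Sema4f has its 1 high value in Het3.

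Counted over the families, 2 of 30 tested members rose and 0 fell by limma, against 0.288% of all 19416 tested genes that rose and 0.525% that fell. At an unadjusted p below 0.05 there were 5 of 30, against 13.6% of all genes. edgeR called 1 higher and 0 lower, where it called 0.124% and 0.263% of all genes. DESeq2 called 3 higher and 1 lower, with 1.97% and 3.96% of all genes. The authors' deposited table also gave 3 higher (Plxna4, Sema5a and Sema6a) and 1 lower (Sema3c), with 3.06% and 5.23% of the tested genes called there. Groups did not overlap for 4 higher and 2 lower members, with 8.57% and 9.86% of all genes. Limma called 1 member higher without Het1, Ko1, Ko2 or Ko3 (Sema5a), 1 without Het2 (Plxna4) and 0 without Het3. Without Ko2 it also called 1 lower (Sema3c). The median log2 fold change was -0.12 over the 30 members and -0.05 over all tested genes, with 13 positive and 17 negative members.

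**Figure D4:**
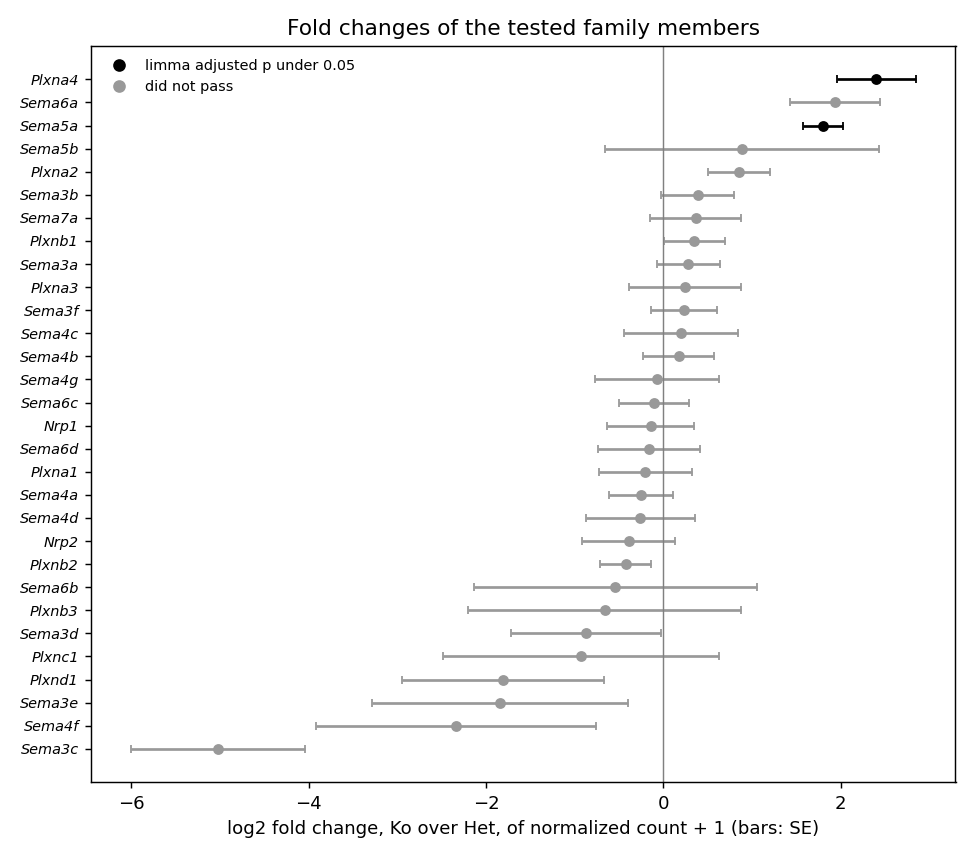
Log2 fold change, Ko over Het, of normalized count plus 1 for the 30 tested members, with bars of 1 SE; black marks a limma adjusted p below 0.05. Only Plxna4 and Sema5a are black, Sema3c at -5.02 lies farthest from 0, and most members lie within 1 log2 unit of 0.

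The summed normalized counts of all 31 genes were 11156, 12398 and 10895 across the Het libraries, and 15626, 14858 and 15185 across the Ko libraries. Leaving out Sema5a, Plxna4, Plxna2 and Sema6a, chosen for their higher Ko values, the sums were 8955, 9993 and 9236 and 8478, 8448 and 8557. Without these 4 genes the Ko sums were below the Het sums. That order depends on the choice, which left out genes higher in Ko and kept Sema3c, which was lower. It therefore cannot show a direction of the remaining members. Sema5a had the largest difference in normalized counts among the 4.

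Co-receptors, alternative receptors and effectors outside the 3 families were taken from a list of 60 genes, of which 58 were tested. Limma called 0 of them and edgeR 0, with 7 of 58 at an unadjusted p below 0.05, against 13.6% of all tested genes. DESeq2 called 2 higher and 1 lower, against 1.97% and 3.96% of all genes. The median log2 fold change of the list was -0.05. Nrcam, an adhesion protein of the L1 family that pairs with neuropilin-2, was at 479.8, 464 and 897 normalized counts across the Het libraries, and 1431, 1883 and 1670.2 across the Ko libraries, without overlap. On the log2 scale Nrcam differed by 1.50 ± 0.31 (SE; limma adjusted p = 0.0610, DESeq2 adjusted p = 8.23e-04). Dpysl3, a collapsin response mediator that acts on microtubules downstream of semaphorins, stood at 1109.5, 1120.3 and 838 and at 2455, 1947 and 1790.5. It also had no overlap (1.01 ± 0.23, limma adjusted p = 0.0868, DESeq2 adjusted p = 0.00355).

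On the lower side of the list, Mras, a Ras-like G protein on which plexins act, stood at 325, 922 and 612 normalized counts across the Het libraries, and 219, 194 and 223 across the Ko libraries (log2 fold change -1.42 ± 0.44 SE, limma adjusted p = 0.188, DESeq2 adjusted p = 0.0247). Rhod, a G protein that binds plexins, was at 217 ± 67.2 and 35.2 ± 39.2, and the receptor kinase gene Met, whose product associates with B-type plexins, at 283 ± 153 and 66.7 ± 70.0 (SD, n = 3 per group; limma adjusted p = 0.229 and 0.251). L1cam, the gene of the sort marker, was at 2745 ± 331 and 3670.2 ± 687 (SD, n = 3 per group; limma adjusted p = 0.408).

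Markers of other cells were read beside these results, with calls by limma, DESeq2 and the authors' deposited table. The 7 mesenchymal markers summed to 926 to 1523 normalized counts in the Het group, and to 2568, 13509 and 911 across the Ko libraries. Limma called 0 of them, DESeq2 1 higher (Lum) and the authors' deposited table gave 2 higher. Lum stood at 2.24, 2.13 and 13.0 across the Het libraries, and 233, 2149 and 0 across the Ko libraries. Of the 7, 5 had a positive and 2 a negative log2 fold change (Pdgfrb and Col3a1). Ko2, with the high sum, had the lowest Sema5a and Sema6a values of the Ko libraries, and the highest for Sema3c and Plxna4. The 11 markers of other mimetic fates, medullary cells that express programs of peripheral tissues, summed to 129310 to 180871 in Het and 12843 to 34696 in Ko libraries, and Reg3g made up most of the sum in the Het libraries. Limma called 4 lower and 0 higher, while DESeq2 and the authors' deposited table each gave 7 lower and 1 higher. The muscle regulator gene Myog went the other way from the sum, at 446 ± 109 and 1188 ± 422 without overlap (SD, n = 3 per group; DESeq2 adjusted p = 0.00464, limma adjusted p = 0.111), and Spib was also higher without overlap. Sema3c had the same direction as the sum, and Ko2 was the highest Ko library for both. Whether these cells contributed to the Sema3c difference was not tested.

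The 6 endothelial markers summed to 1737 to 2647 in Het and 1890 to 2624 in Ko libraries, most of it Tek, with Tie1 at 4.33 or less throughout. Limma and DESeq2 called 0 of them and the authors' deposited table gave 1 higher. Cdh5, the cadherin of endothelial junctions, stood at 17.3, 16.3 and 4.33 across the Het libraries, and 132, 125 and 44.4 across the Ko libraries, without overlap (limma adjusted p = 0.255). Of the 5 endothelial markers tested, 3 had a positive and 2 a negative log2 fold change. The negative ones were Pecam1, at a mean of 218 in Het and 199 in Ko libraries, and Tek, at 1938 and 1780. The part of endothelial cells in the values of Sema3c, Sema3g and Plxnd1 was not tested. The 9 dendritic cell and macrophage markers summed to 53487, 4314 and 9066 across the Het libraries, and 757, 3060.2 and 1412 across the Ko libraries, with Itgax at 4.30 or less. Limma called 0, while DESeq2 and the authors' deposited table each gave 1 lower. Lyz2 made up nearly all of the Het1 sum, where Csf1r and Cd68 were the lowest of the Het libraries. Plxnc1 was also highest in Het1. Its next highest value, 131, was in Ko1, where the marker sum was the lowest of all libraries. Its lowest value, 4.97, was in Het2, where Csf1r and Cd68 were highest. The part of these cells in the Plxnc1 values was not tested.

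Of the 9 thymocyte markers the sums were 144 to 524 and 584 to 1206, with Cd8a, Rag1 and Ptcra at 5.73 or less in each library. Limma called 0, while DESeq2 and the authors' deposited table each gave 1 higher. Themis made up most of the Ko sums, at 8.39, 58.9 and 79.4 across the Het libraries, and 434, 379 and 908 across the Ko libraries (limma adjusted p = 0.0735, DESeq2 adjusted p = 4.16e-05). Of the 6 thymocyte markers tested, 4 had a positive and 2 a negative log2 fold change. The negative ones were Cd3e, at a mean of 15.5 in Het and 5.87 in Ko libraries, and Lck, at 161 and 76.9. Of the 6 B cell markers, limma called Cd79b higher, at 2463 ± 581 and 5279 ± 538 (SD, n = 3 per group, limma adjusted p = 0.0433). DESeq2 and the authors' deposited table each gave 1 higher and 0 lower. Of the 4 tested, 2 had a negative log2 fold change. These were Cd79a, at 39.5 ± 59.4 and 1.51 ± 0.52, and Pax5, at 43.1 ± 19.3 and 23.6 ± 26.8 (limma adjusted p = 0.627 and 0.677). Ms4a1 stood at 4.33 or less in each library. The 9 markers of other medullary and cortical epithelium summed to 10018 to 14674 and 9927 to 17192. Limma called 0 of them while DESeq2 and the authors' deposited table each gave 1 lower. Of the 8 tested, 4 had a positive and 4 a negative log2 fold change. Krt14 was higher without overlap, at 2760 ± 776 and 3774 ± 100 (SD, n = 3 per group, limma adjusted p = 0.343). Foxn1, whose regulatory sequence drives the Cre, was at 337 ± 101 and 101 ± 13.3 without overlap (SD, n = 3 per group; limma adjusted p = 0.162, DESeq2 adjusted p = 0.0286), and Aire at 1113 ± 839 and 197 ± 213 (limma adjusted p = 0.316). The part of these cells in the members' values was not tested.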

How the data were processed

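RNA was sequenced from L1CAM-sorted thymic tuft cells, 3 libraries for each genotype. The submitters' processing notes name STAR 2.7.9a, build GRCm39 and DESeq2. Counter, annotation and strandedness: not given in the sources used here. Each deposited value is a normalized signal, the reads per gene divided by 1 size factor per library; all values above 0 were whole multiples of it within 0.01 reads (100%), so reads were recovered. Per the file headers, the authors' table of Ko against Het has, for each gene, the log2 fold change and its error, the Wald score, and the p-value before and after adjustment.

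The members, lists and tests were chosen with earlier results of these data known. Genes with a mean of at least 10 were tested in R 4.3.3 by limma 3.58.1 after taking log2(value + 1) (trended eBayes, two-sided, genotype as the only term), with Benjamini-Hochberg adjustment over all of them at 0.05. edgeR 4.0.16 (quasi-likelihood) and DESeq2 1.42.0 were run on the recovered reads of the same genes. Symbols matched 55144 of 55471 identifiers. Exon lengths, overlaps and chromosomes come from GENCODE M21, a GRCm38 annotation and so another build than that of the files. Members were given library by library if their unadjusted limma p was under 0.05, if another tool or the authors called them, or if they were among the 2 highest of their class; Plxnc1, Plxnd1, Sema3e and Sema4f were added after their values were seen. Pathway genes were named by smallest p. Replicates differed by more than sampling noise (chi-square per degree of freedom 56.9 to 134). The fits were tested on simulated data. The alternatives were pseudocounts of 0.5 and 5, no filter or a mean of 50, TMM scaling, edgeR, DESeq2, a block by column number and leaving out each library.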

Additional observations from a re-analysis of the deposited data

How the results depend on the processing

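Of 196 fold changes of the 14 members described by the rule, taken over 14 alternatives each, 172 kept their direction and side of the threshold, 9 lost the call, 7 gained one and 8 reversed. The reversals, all of members that did not pass and all on leaving out a library, were those of Nrp1 (from -0.51 to 0.32 over the libraries left out), Nrp2 (-0.80 to 0.032), Sema3a (-2.9e-04 to 0.52), Sema3f (-0.034 to 0.57), Sema4a (-0.58 to 0.10), Sema4b (-0.035 to 0.52) and Sema6c (-0.32 to 0.16, with 0.12 without Het1). The count of members called higher was 2, and 1 with TMM scaling, 1 with edgeR, 3 with DESeq2 and 0 to 1 on leaving out a library. The count called lower was 0, and 1 with a pseudocount of 5, no filter, a mean of 50, TMM scaling or DESeq2, and 0 to 1 on leaving out a library; in each the gene was Sema3c. The count of pathway genes called was 0, 1 with a mean of 50 and 3 with DESeq2. Over all 19416 genes limma called 56 higher and 102 lower, edgeR 24 and 51, and DESeq2 383 and 768. The cause was not tested.

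The replicate block by column number gave 2 members higher and 0 lower, as without it. Whether samples were paired cannot be told from these numbers, which no label carries. Deviations from the group means correlated at 0.025, 0.021 and -0.015 for libraries of the same number, which cannot exclude pairing with so few libraries. The sample titles give consecutive numbers to Cre-negative and Cre-positive samples, but the columns could not be tied to these titles. Low depth limits Sema3g, Plxnb3, Sema4f and Sema6b, with 24, 95, 101 and 111 reads in all, among other low members.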
